A study of Rattus norvegicus with 78 samples.

Results

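Crem, Fhl5, Tbpl1, Rfx2, Ybx2, Boll, Papolb and Cstf2t encode regulators of transcription and of RNA in spermatids, the haploid cells that become sperm. They were taken by symbol from the annotation of a rat array. Of the 8 genes listed, 7 were named by a probe set with 1 symbol, among 29214 probe sets and 14506 genes named in that way. Each of the 7 had a single probe set. Ybx2 was not analysed here.

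The arrays measured RNA of sperm from the cauda epididymis of Fischer 344 rats, with 1 array per sample and 78 arrays in all. The title of the series speaks of testis, whereas the labels of the samples name sperm, and the labels were followed. Control rats received corn oil. Treated rats received 1,2-dibromo-3-chloropropane (DBCP), a fumigant toxic to male germ cells, at 5 mg/kg/day. Exposure ran for 3 months, and 20 corn oil and 20 DBCP samples were collected at its end. A further 19 samples of each treatment were collected after recovery. Neither the length of recovery nor the age of the rats was given in the sources used here, so recovery, age and time of collection cannot be told apart in any comparison over time. The labels call the samples biological replicates and do not say more of their source. Values are log2 levels per probe set, and the array medians lay between 6.55 and 6.75. Sperm were released from punctured epididymides, pelleted and treated with a buffer that lyses red cells. No step that removes other nucleated cells is named. Markers of sperm had a mean level of 10.97 in corn oil rats when exposure ended, markers of leukocytes 8.34 and markers of spermatocytes 5.97. The arrays with a limma weight under 0.5, which stood apart from their groups over all probe sets, were DBCP replicates 2, 13 and 20 at the end of exposure, DBCP replicates 7 and 15 after recovery and corn oil replicate 11 after recovery.

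CREM is the main activator of genes that spermatids transcribe after meiosis, and binds the cyclic AMP response element (CRE). FHL5, also known as ACT, is its coactivator in the testis, TBPL1 (TRF2) is a relative of the TATA-binding protein that is needed to form spermatids, and RFX2 binds the X-box of genes for cilia and the sperm tail. Transcription stops when the nucleus condenses, so spermatids store messages and translate them later. BOLL, of the DAZ family, binds RNA. PAPOLB is a cytoplasmic poly(A) polymerase of the testis and CSTF2T is the testis form of a factor for 3' end cleavage. Mature sperm do not transcribe, and their RNA is largely left from these earlier stages.

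The upstream sequences are shown for the CRE, which CREM itself binds, and for the genes that moved together below and had a match. They come from RefSeq on the build GRCr8 and cover 250 bases before an annotated start. RefSeq entries gave 8 such windows for 6 of the genes. Each motif was searched on both strands. The full CRE was TGACGTCA. Its short form was TGACG, which every full CRE holds in both orientations. For the X-box its core GTTGCC was used. The TATA box was TATAAA. The core of the Y-box, the site of Y-box proteins, was ATTGG, which reads CCAAT on the opposite strand. Capitals mark the matches. The first window lies before an internal start of Crem, at chr17:58984547-58984796 on the plus strand, with all 250 bases inside the span of the gene. The second belongs to Rfx2, at chr9:1758147-1758396 on the minus strand, and all 250 bases are inside the span of the gene, since other starts lie further upstream. The third belongs to Papolb, at chr12:17157507-17157756 on the plus strand, with 0 bases inside the gene.
Crem: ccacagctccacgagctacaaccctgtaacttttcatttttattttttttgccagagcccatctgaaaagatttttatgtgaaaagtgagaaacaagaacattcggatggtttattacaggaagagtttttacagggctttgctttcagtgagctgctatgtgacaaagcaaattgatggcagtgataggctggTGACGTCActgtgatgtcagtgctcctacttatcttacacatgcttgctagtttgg
Rfx2: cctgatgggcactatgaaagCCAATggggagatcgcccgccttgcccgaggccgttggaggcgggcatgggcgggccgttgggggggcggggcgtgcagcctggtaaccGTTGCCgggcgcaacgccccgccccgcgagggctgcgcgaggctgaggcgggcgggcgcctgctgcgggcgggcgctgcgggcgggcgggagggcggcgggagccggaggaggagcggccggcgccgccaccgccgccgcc
Papolb: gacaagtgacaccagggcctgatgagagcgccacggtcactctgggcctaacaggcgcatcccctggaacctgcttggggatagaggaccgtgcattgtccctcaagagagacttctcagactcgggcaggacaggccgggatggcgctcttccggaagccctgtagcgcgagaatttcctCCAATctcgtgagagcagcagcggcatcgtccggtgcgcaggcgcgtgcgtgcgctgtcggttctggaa

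The full CRE of this Crem window lies 56 to 49 bases before the start. A further Crem window held a full CRE at 35 to 28 bases, and the remaining one held 2 short forms. Among all 33469 promoter windows 1.59% held a full CRE and 18.2% a short form. Of the 8 windows here 2 held a full CRE and 3 a short form, and all of these belong to 1 gene, Crem. Rfx2 had an X-box core 141 to 136 bases before its start, which 9.89% of all windows hold. A Y-box core was found in 2 of the 8 windows, against 34.0% of all windows. These were Rfx2 and Papolb, at 69 to 65 bases in the latter. The TATA box, in 12.9% of all windows, was found in 0 of the 8. The windows of Fhl5, Tbpl1 and Boll had no match to these letters. These matches describe sequence and show no binding.

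Across the comparisons, Fhl5, Papolb and Rfx2 fell between the end of exposure and recovery in DBCP rats, and Fhl5 also fell in corn oil rats. Papolb (-0.24) and Rfx2 (-0.18) lay below 0 in corn oil rats too, but missed the threshold there. No difference between DBCP and corn oil rats passed the test. In DBCP rats 3 of 7 genes passed over time, all lower, where limma called 13.5% of all probe sets (6.19% lower and 7.28% higher) at an adjusted p under 0.05. In corn oil rats 1 of 7 passed, lower, where limma called 24.3% of all probe sets (12.8% lower and 11.5% higher). That corn oil count depended on the setting, from 0 with median centring to 3 without the 6 arrays of low weight. The share of 3 in 7 is higher than its background, and that of 1 in 7 is near to it. The 3 genes varied together across arrays, so they do not count as separate draws, and the share was not tested. At an unadjusted limma p under 0.05 the count was 4 of 7 in each treatment. Among all probe sets that share was 27.1% in DBCP rats and 37.9% in corn oil rats. The median log2 difference of the 7 genes was -0.29 in DBCP rats, against 0.01 over all probe sets, and -0.05 in corn oil rats, against -0.04. The levels of the 7 genes on each array are plotted by group.

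**Figure D1:**
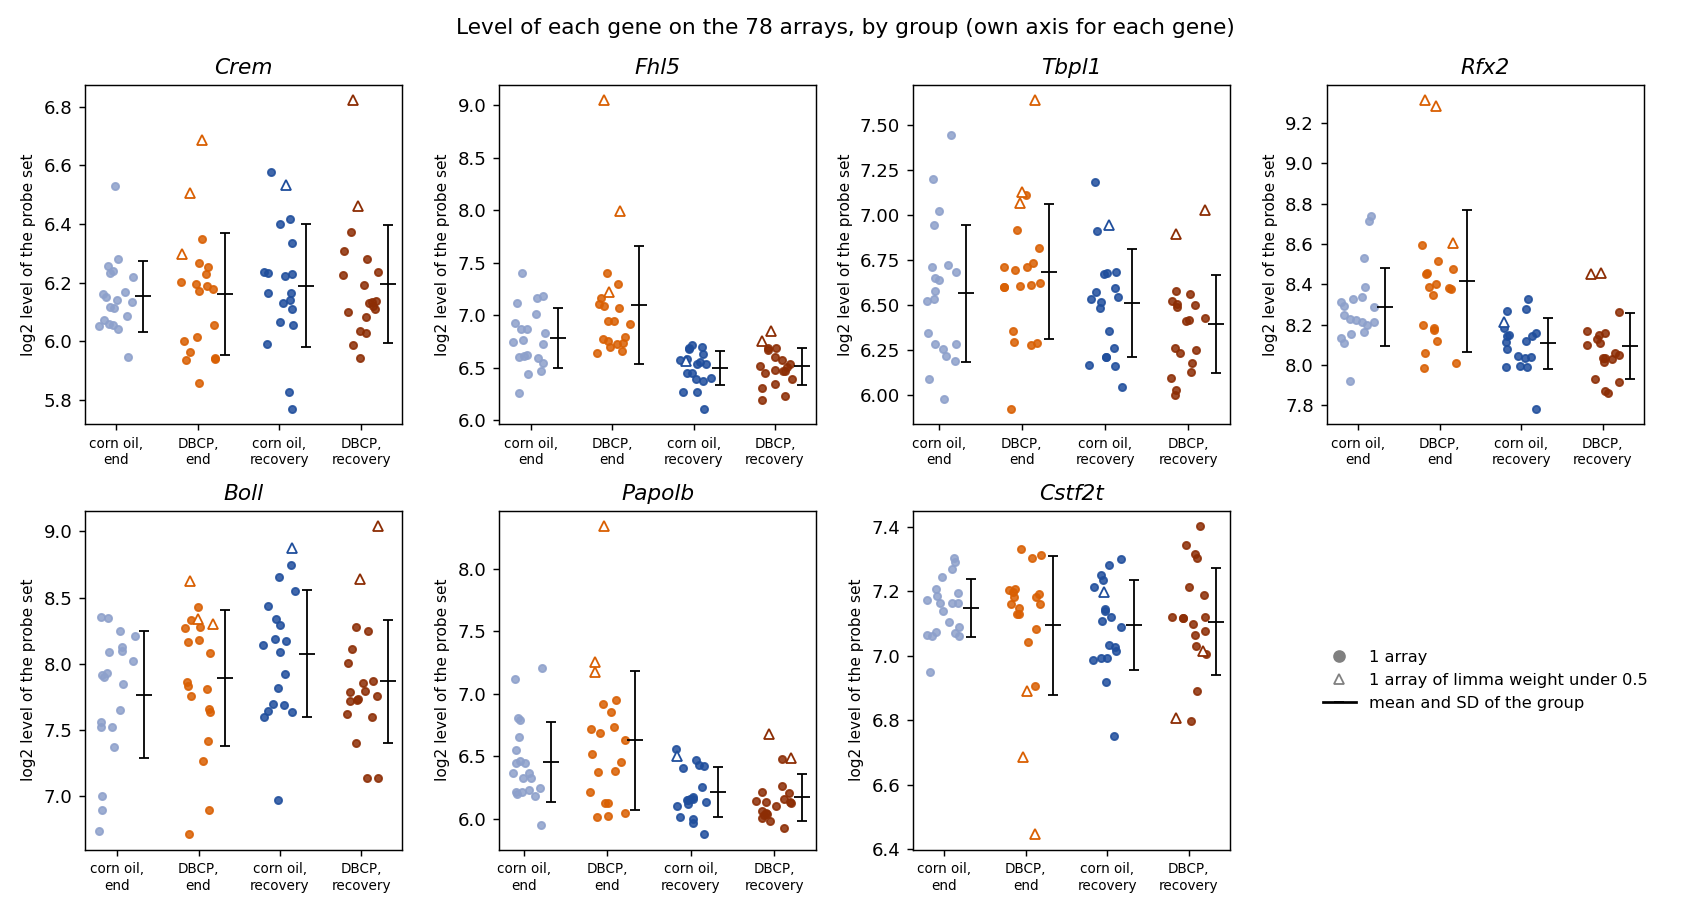
Log2 level of each gene (y axis, own scale per gene) on each of the 78 arrays, by group (x axis). Circles are arrays, open triangles the 6 arrays of limma weight under 0.5, and bars the group mean and SD. Fhl5 spans 6.26 to 9.05 over both groups at the end of exposure and 6.11 to 6.85 over both groups after recovery. Its values above 7.40 are those of DBCP replicates 2 and 13 at the end of exposure.

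Among the transcription regulators, Crem (probe set 10795616, gene at chr17:58932011-59001160) stayed at nearly one level in the group means. When exposure ended its lowest, median and highest log2 levels were 5.95, 6.14 and 6.53 in corn oil rats and 5.86, 6.18 and 6.69 in DBCP rats. They were 5.77, 6.17 and 6.58 in corn oil rats and 5.94, 6.13 and 6.82 in DBCP rats after recovery. All 4 groups overlapped almost fully, and the highest value of each DBCP group was on an array of low weight. Over time Crem differed by 0.04 ± 0.06 (log2 difference ± SE) in corn oil rats and by 0.03 ± 0.06 in DBCP rats, and neither passed.

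Fhl5 (10875787, chr5:43704493-43753356) had the largest fall of the 7 in DBCP rats. Its lowest, median and highest log2 levels were 6.26, 6.75 and 7.40 in corn oil rats and 6.64, 6.95 and 9.05 in DBCP rats at the end of exposure. In the recovery groups they were 6.11, 6.54 and 6.72 in corn oil rats and 6.19, 6.50 and 6.85 in DBCP rats. The recovery arrays formed a narrow band, and the arrays before them reached higher, with overlap at the lower end. DBCP replicates 13 (9.05) and 2 (8.00), both of low weight, stood apart, and the other earlier arrays reached 7.40 at most. The recovery means (6.50 in corn oil and 6.51 in DBCP rats) lay below the median of all values (6.69). In DBCP rats Fhl5 fell by 0.59 ± 0.11 on the log2 scale, or 1.50-fold (limma adjusted p = 4e-05), and all 19 of 19 recovery arrays lay below the mean before recovery. In corn oil rats it fell by 0.29 ± 0.11, or 1.22-fold (limma adjusted p = 0.0393), again on 19 of 19 arrays. In samples of whole RNA, fewer cells that carry a transcript and less of it per cell cannot be told apart. The DBCP call held without each of 39 arrays in turn and in each set of replicate numbers (numbers 1 to 10 alone -0.53, limma adjusted p = 0.00322, and 11 to 20 alone -0.65, adjusted p = 0.0485). The corn oil call did not pass with each array centred on its median (-0.26, limma adjusted p = 0.0877), in either set of numbers (-0.33, adjusted p = 0.0518, and -0.25, adjusted p = 0.423), or without any 1 of 10 arrays. These were corn oil replicates 3, 4, 8, 9, 19 and 20 at the end of exposure and 3, 7, 10 and 18 after recovery, where the difference lay between -0.29 and -0.26 (highest adjusted p = 0.0668, without replicate 4).

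Tbpl1 (10702309, chr1:24597028-24622445) was below the earlier mean on 17 of 19 DBCP recovery arrays but missed the threshold. Its lowest, median and highest log2 levels at the end of exposure were 5.98, 6.56 and 7.44 in corn oil rats and 5.92, 6.66 and 7.64 in DBCP rats. After recovery they were 6.04, 6.53 and 7.18 in corn oil rats and 6.00, 6.42 and 7.03 in DBCP rats. The groups overlapped widely. The difference over time was -0.29 ± 0.11 in DBCP rats (limma adjusted p = 0.0527) and -0.05 ± 0.11 in corn oil rats. It passed in DBCP rats when any 1 of 7 arrays was left out (DBCP replicates 4, 7, 8, 12 and 18 at the end of exposure and 7 and 15 after recovery), with differences between -0.33 and -0.31 and adjusted p between 0.0233 and 0.0418.

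Rfx2 (10930873, chr9:1691762-1759159) fell with Fhl5 in DBCP rats. With exposure just ended its lowest, median and highest log2 levels were 7.92, 8.24 and 8.74 in corn oil rats and 7.98, 8.39 and 9.31 in DBCP rats. The recovery levels were 7.78, 8.12 and 8.33 in corn oil rats and 7.86, 8.06 and 8.45 in DBCP rats. DBCP replicates 2 and 13 were the only arrays above 9, and the corn oil recovery arrays all lay below the median of the DBCP arrays when exposure ended. Rfx2 fell by 0.32 ± 0.07 in DBCP rats, or 1.25-fold (limma adjusted p = 0.000897, 17 of 19 arrays below the earlier mean). In corn oil rats the difference was -0.18 ± 0.07 (limma adjusted p = 0.0594, 18 of 19 arrays). That value depended on the setting. It passed in 8 of 13 other settings, 1 of them the looser threshold of 0.10, with the lowest adjusted p under quantile normalization (-0.23, adjusted p = 0.00603). By replicate numbers it was -0.31 in 1 to 10 alone (limma adjusted p = 0.0311) and -0.04 in 11 to 20 alone (adjusted p = 0.82). It also passed without corn oil replicate 12 at the end of exposure (-0.20, adjusted p = 0.0396) or replicate 17 after recovery (-0.19, adjusted p = 0.0476).

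**Figure D2:**
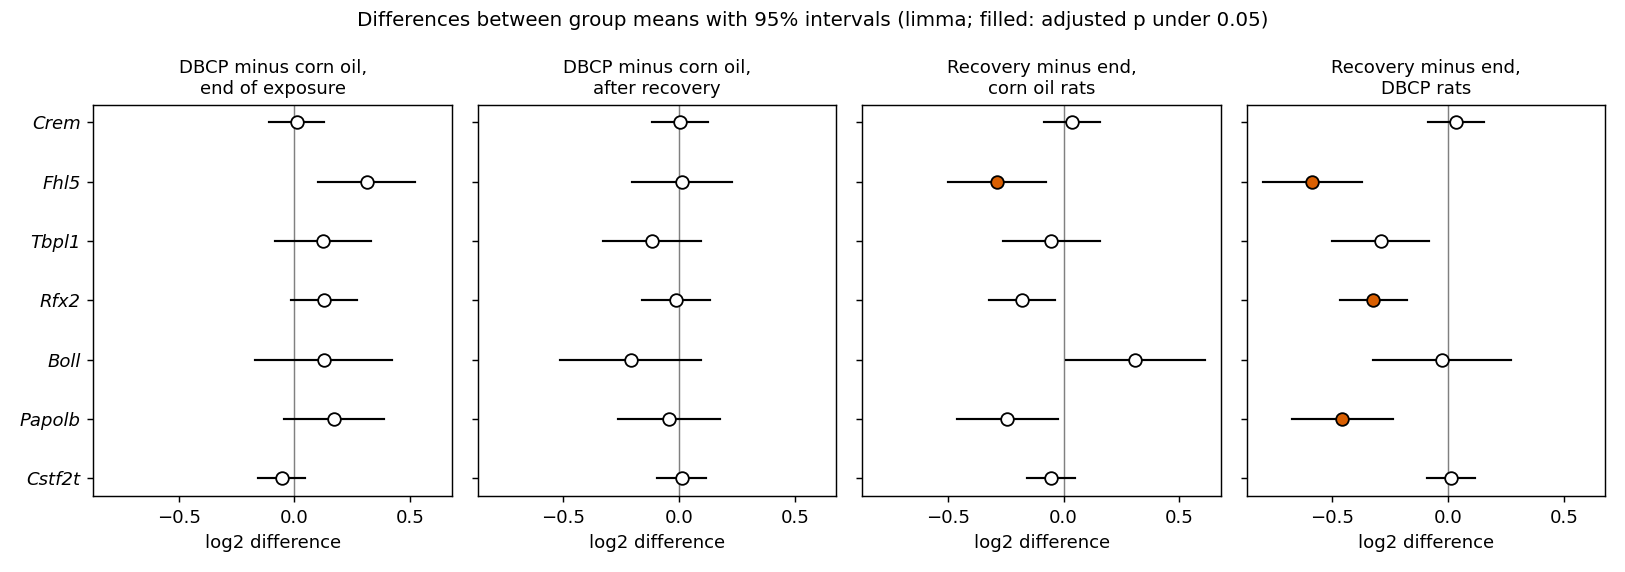
Log2 difference between group means of each gene (x axis) with its 95% interval, in 4 comparisons (panels). Filled points had a limma adjusted p under 0.05. They are Fhl5 in corn oil rats over time (-0.29) and Fhl5 (-0.59), Rfx2 (-0.32) and Papolb (-0.46) in DBCP rats over time.

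Of the RNA regulators, Boll (10928177, chr9:64225411-64354394) had the widest spread between arrays in corn oil rats. At the end of exposure its lowest, median and highest log2 levels were 6.74, 7.91 and 8.35 in corn oil rats and 6.71, 7.98 and 8.63 in DBCP rats. The recovery levels were 6.98, 8.14 and 8.87 in corn oil rats and 7.14, 7.79 and 9.04 in DBCP rats. Each group spanned over 1 unit of log2, and the groups overlapped throughout. Boll differed over time by 0.31 ± 0.15 in corn oil rats (limma adjusted p = 0.12) and by -0.03 ± 0.15 in DBCP rats, where no call was made.

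Papolb (10756871, chr12:17157757-17160103) fell in DBCP rats. When exposure ended its lowest, median and highest log2 levels were 5.95, 6.37 and 7.20 in corn oil rats and 6.02, 6.57 and 8.34 in DBCP rats. After recovery they were 5.88, 6.16 and 6.56 in corn oil rats and 5.93, 6.14 and 6.68 in DBCP rats. The recovery arrays lay in the lower part of the earlier range. Papolb fell by 0.46 ± 0.11 in DBCP rats, or 1.37-fold (limma adjusted p = 0.00202, 18 of 19 arrays below the earlier mean). In corn oil rats the difference was -0.24 ± 0.11 (limma adjusted p = 0.0932, 16 of 19 arrays), with -0.35 in replicate numbers 1 to 10 alone and -0.13 in 11 to 20 alone, neither of which passed. The DBCP calls of Papolb and Rfx2 held without each of 39 arrays in turn. They also held in replicate numbers 1 to 10 alone (-0.42, limma adjusted p = 0.0361, and -0.37, adjusted p = 0.0141), but not in 11 to 20 alone (-0.50, adjusted p = 0.156, and -0.27, adjusted p = 0.193). Without the 6 arrays of low weight Fhl5 (-0.45), Papolb (-0.34) and Rfx2 (-0.25) still fell in DBCP rats.

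Cstf2t (10714788, chr1:238366042-238369608) had the narrowest range at the end of exposure in corn oil rats. Its lowest, median and highest log2 levels there were 6.95, 7.16 and 7.30, and in DBCP rats 6.45, 7.16 and 7.33. After recovery they were 6.75, 7.11 and 7.30 in corn oil rats and 6.80, 7.12 and 7.40 in DBCP rats. The medians lay between 7.11 and 7.16, and the lowest value of all, 6.45, was that of a DBCP array before recovery. The differences over time were -0.05 ± 0.05 in corn oil rats and 0.01 ± 0.05 in DBCP rats, and neither passed.

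Whether DBCP altered these transcripts was asked first in the samples taken when exposure ended. There 6 genes had values above 0 and Cstf2t one below, and 0 of 7 passed, where limma called 0% of all probe sets (3386 had an unadjusted p under 0.05). The largest log2 difference was that of Fhl5 at 0.31 ± 0.11 (limma adjusted p = 0.205), with 13 of 20 DBCP arrays above the corn oil mean. Papolb followed at 0.17 ± 0.11, Rfx2 and Boll at 0.13 (SE 0.07 and 0.15), Tbpl1 at 0.12 ± 0.10, Crem at 0.01 ± 0.06 and Cstf2t at -0.05 ± 0.05. The median of the 7 was 0.13, against -0.02 over all probe sets. It was 0.02 in replicate numbers 1 to 10 alone, 0.24 in 11 to 20 alone and 0.02 without the 6 arrays of low weight. DBCP replicate 13 was the highest array of its group for 5 of 7 genes. In replicate numbers 1 to 10 alone Fhl5 had 0.20 and Papolb 0.01, and in 11 to 20 alone they had 0.42 and 0.33, with no call. Tbpl1 changed sign, with -0.014 in 1 to 10 alone and 0.26 in 11 to 20 alone. Without replicate 13 the difference of Fhl5 was 0.21, and without the 6 arrays of low weight it was 0.14, while Papolb came to 0.00074, Rfx2 to 0.01 and Tbpl1 to 0.02.

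After recovery 0 of 7 genes differed between DBCP and corn oil rats, where limma called 0% of all probe sets (1084 had an unadjusted p under 0.05). The log2 differences ran from -0.21 ± 0.15 (Boll) and -0.12 ± 0.11 (Tbpl1) to 0.01 ± 0.11 (Fhl5). Rfx2 stood at -0.01 ± 0.07 and Papolb at -0.04 ± 0.11. The sets of replicate numbers differed in both extremes. Boll had -0.03 in numbers 1 to 10 alone and -0.41 in 11 to 20 alone, and Tbpl1 had -0.22 and -0.0032, none of which passed. The interaction asked whether the fall over time differed between DBCP and corn oil rats. It gave 0 of 7 calls, where limma called 0% of all probe sets (3170 had an unadjusted p under 0.05). Its values were -0.30 ± 0.15 for Fhl5 (limma adjusted p = 0.461), -0.21 ± 0.16 for Papolb, -0.14 ± 0.10 for Rfx2, -0.24 ± 0.15 for Tbpl1 and -0.34 ± 0.21 for Boll. In replicate numbers 1 to 10 alone it was -0.05 for Boll, -0.20 for Fhl5, -0.06 for Papolb and -0.07 for Rfx2. In 11 to 20 alone it was -0.64, -0.39, -0.36 and -0.22, and again 0 passed. The larger falls in DBCP rats were thus not shown to differ from those in corn oil rats.

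Levels of cell markers also moved with time. The 10 sperm markers had mean levels of 10.97 (range over arrays 9.97 to 11.51) in corn oil rats and 11.29 (10.45 to 12.22) in DBCP rats at the end of exposure. After recovery they had 10.64 (10.10 to 11.10) and 10.60 (10.07 to 11.35). The 15 leukocyte markers went from 8.34 (7.98 to 8.84) and 8.20 (7.74 to 8.60) to 8.74 (8.35 to 9.23) and 8.57 (8.21 to 8.98). Among all probe sets limma called 12.8% lower and 11.5% higher in corn oil rats, and 6.19% and 7.28% in DBCP rats. By gene, 5 of 10 sperm markers fell and 0 rose in corn oil rats and 8 fell and 0 rose in DBCP rats. Of the leukocyte markers 11 of 15 rose and 1 fell in corn oil rats, and 12 rose and 0 fell in DBCP rats. Epididymal epithelium markers had mean levels of 7.24 (6.93 to 7.54) and 7.38 (6.95 to 7.91), then 7.39 (7.15 to 7.88) and 7.36 (7.10 to 7.74). Of these 11 genes 4 rose (Foxi1, Atp6v1b1, Aqp9 and Defb1) and 1 (Crisp1) fell in corn oil rats, and 0 passed in DBCP rats. The 10 spermatocyte markers stayed between 5.95 and 5.97 in the group means, below the median of all values (6.69). By gene, 2 fell and 0 rose in corn oil rats, and 1 fell and 0 rose in DBCP rats. Of the 10 stroma markers 1 rose and 1 fell in corn oil rats, and 2 rose and 0 fell in DBCP rats. Of 5 measured erythrocyte markers 0 passed in either treatment. The part of these shifts in the falls of Fhl5, Papolb and Rfx2 was not tested.

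Late spermatid genes, many of them targets of CREM, were set beside the 7 genes. At the end of exposure all 12 measured lay above 0 in the DBCP against corn oil difference (median 0.40) and 0 passed. That median was 0.19 in replicate numbers 1 to 10 alone, 0.63 in 11 to 20 alone and 0.26 without the arrays of low weight. Over time 6 of 12 fell and 0 rose in corn oil rats (median log2 difference -0.37, against -0.04 over all probe sets). There limma called 12.8% of all probe sets lower and 11.5% higher. In DBCP rats 10 of 12 fell and 0 rose (median -0.77, against 0.01), where limma called 6.19% lower and 7.28% higher. Examples in DBCP rats are Ace, whose testis form sits on sperm and is a CREM target (-0.78 ± 0.10, limma adjusted p = 3.66e-08), Gapdhs, the sperm form of a glycolytic enzyme (-1.11 ± 0.15, adjusted p = 1.3e-07), and Akap4, of the fibrous sheath of the tail (-1.37 ± 0.19, adjusted p = 1.64e-07). In corn oil rats Ace (-0.44 ± 0.10), Spata19, a mitochondrial protein of spermatids (-1.08 ± 0.25), and Tnp1, a transition protein (-0.87 ± 0.22), had the smallest p. The Crem level moved by 0.03 ± 0.06 in DBCP rats, at a mean of 6.17, below the median of all values (6.69). Its part in the falls of these genes was not tested. In replicate numbers 11 to 20 alone 7 of 12 fell in DBCP rats and 0 of 12 in corn oil rats.

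Of 22 listed partners in spermatid transcription 15 were measured. Over time 2 rose and 1 fell in corn oil rats (median 0.06, against -0.04 over all probe sets), and 0 rose and 2 fell in DBCP rats (median 0.01, against 0.01). These 3 and 2 of 15 are near the 24.3% and 13.5% called among all probe sets, so the counts say nothing particular of the partners. Crebbp, a coactivator with histone acetyltransferase activity, rose in corn oil rats (0.29 ± 0.07, limma adjusted p = 0.00135), as did Gtf2a1, a subunit of the general factor TFIIA (0.19 ± 0.07, adjusted p = 0.0493). Rfx1, a relative of Rfx2, fell in corn oil (-0.12 ± 0.04, adjusted p = 0.0312) and DBCP rats (-0.14 ± 0.04, adjusted p = 0.0169). Sox5, a factor of spermatids, fell in DBCP rats (-0.29 ± 0.07, adjusted p = 0.00299). With median centring or quantile normalization 0 of the 15 fell in corn oil rats, and in replicate numbers 11 to 20 alone 0 of 15 passed in either treatment.

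Other RNA-binding and translation factors of germ cells included calls in both directions. Of 26 listed 22 were measured, and over time 8 rose and 4 fell in corn oil rats, where 11.5% of all probe sets were called higher and 12.8% lower. In DBCP rats 3 rose and 6 fell, against 7.28% and 6.19% of all probe sets. Pum2, a repressor of translation, rose in corn oil (0.47 ± 0.08, limma adjusted p = 1.9e-05) and DBCP rats (0.37 ± 0.08, adjusted p = 0.000476). Qki, a splicing regulator, rose in corn oil rats (0.33 ± 0.07, adjusted p = 0.00026), and Elavl1, which stabilises messages, rose by 0.24 ± 0.06 (adjusted p = 0.00529). Fxr1, which activates stored messages in spermatids, fell by 0.87 ± 0.17 in DBCP rats (adjusted p = 7.07e-05). Mael, a factor of germ granules, fell by 0.83 ± 0.17 there (adjusted p = 0.000193). In replicate numbers 11 to 20 alone 1 of the 22 rose and 0 fell in corn oil rats, and 0 passed in DBCP rats.

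The relatives of Ybx2 and Boll showed no common direction. Ybx1, the widely expressed Y-box protein, rose in corn oil rats (0.29 ± 0.09, limma adjusted p = 0.0173) and stood at -0.02 ± 0.09 in DBCP rats. Ybx3, a Y-box protein abundant in germ cells, stood at 0.05 ± 0.11 in corn oil rats and fell by 0.33 ± 0.11 in DBCP rats (limma adjusted p = 0.04). Dazl, the germ cell relative of Boll, had -0.01 ± 0.05 and 0.07 ± 0.05. The interaction did not pass for Ybx1 (-0.31 ± 0.13) or Ybx3 (-0.37 ± 0.16), each with a limma adjusted p of 0.454.

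Of the general machinery of 3' end processing, 8 of 16 measured genes (20 were listed) rose over time in corn oil rats and 0 fell, where limma called 11.5% of all probe sets higher. In corn oil rats 12 of the 16 lay above 0 and 4 below (median 0.14, against -0.04 over all probe sets). In DBCP rats 3 rose and 1 fell (median 0.09, against 0.01), where 7.28% of all probe sets were called higher. Papola, the nuclear poly(A) polymerase of most cells, rose in corn oil rats (0.44 ± 0.09, limma adjusted p = 0.000407) and had 0.17 ± 0.09 in DBCP rats (adjusted p = 0.254). Papolg, a further nuclear poly(A) polymerase, rose in both (0.27 ± 0.04, adjusted p = 6.45e-06, and 0.18 ± 0.04, adjusted p = 0.0018). Tent2, a cytoplasmic poly(A) polymerase, rose in corn oil rats (0.45 ± 0.08, adjusted p = 5.15e-05) and had 0.22 ± 0.08 in DBCP rats (adjusted p = 0.0649). In DBCP rats the cleavage factor genes Cpsf2 (0.18 ± 0.05, adjusted p = 0.00629) and Cpsf3 (0.15 ± 0.05, adjusted p = 0.0466) rose, and Cstf1 fell by 0.19 ± 0.06 (adjusted p = 0.0159). Cstf2, the widely expressed counterpart of Cstf2t, was not analysed here. In replicate numbers 11 to 20 alone 0 of the 16 rose in corn oil rats and 1 in DBCP rats. Leukocyte markers rose in the same comparisons (11 and 12 of 15), and epididymal epithelium markers rose in corn oil rats (4 of 11) but 0 passed in DBCP rats. The part of both was not tested.

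**Figure D3:**
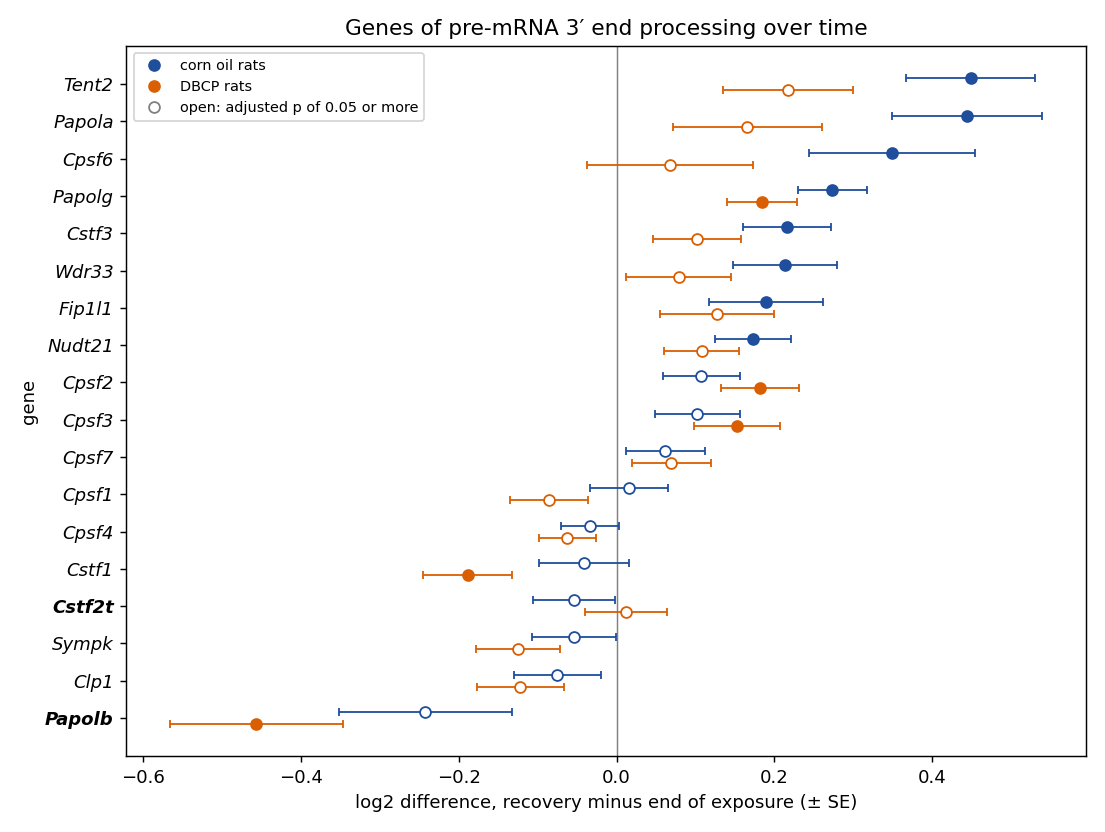
Log2 difference, recovery minus end of exposure (x axis, ± SE), of 16 measured 3' end processing genes and of Papolb and Cstf2t (bold), in corn oil and DBCP rats. Filled points had a limma adjusted p under 0.05. Papolb lies lowest in both (-0.24 and -0.46), while Papola (0.44 and 0.17), Papolg and Tent2 lie above 0.

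Across the 78 arrays, after removal of the group means, the genes varied together. All 21 pairs passed the permutation test of Pearson's r (two-sided, 100000 resamples, Benjamini-Hochberg adjusted over the 21) and 14 passed that of Spearman's rho. How many pairs of other genes on the array would pass was not tested. These counts are therefore not shown to be particular to the genes listed here. The closest pair was Fhl5 and Papolb (r = 0.811, rho = 0.594, permutation p = 1e-05, the smallest these resamples can give, adjusted 3e-05). Fhl5 and Rfx2 had r = 0.729 and rho = 0.473, and Rfx2 and Papolb r = 0.719. Crem and Boll had r = 0.705, Crem and Tbpl1 0.679 and Tbpl1 and Boll 0.649. Pairs between the triple of Fhl5, Rfx2 and Papolb and the triple of Crem, Tbpl1 and Boll had r between 0.270 and 0.560. Cstf2t ran against the other 6, with r between -0.530 and -0.287. The triples were picked after these values were seen.

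The correlations rested in part on a few arrays. For each pair, the 2 arrays farthest from the median of its first gene, in the order of the opening list, were left out. The pairs of the first triple then had r between 0.506 and 0.659 and those of the second between 0.611 and 0.681. Within replicate numbers 1 to 10 the ranges were 0.600 to 0.727 and 0.619 to 0.758, and within 11 to 20 they were 0.834 to 0.864 and 0.707 to 0.725. Without the 6 arrays of low weight they were 0.445 to 0.632 and 0.539 to 0.618. There the pairs between the triples had r between 0.04 and 0.346, and those of Cstf2t between -0.428 and 0.137, with 3 of 6 above 0. Among the corn oil recovery arrays alone the first triple had r between 0.106 and 0.349.

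**Figure D4:**
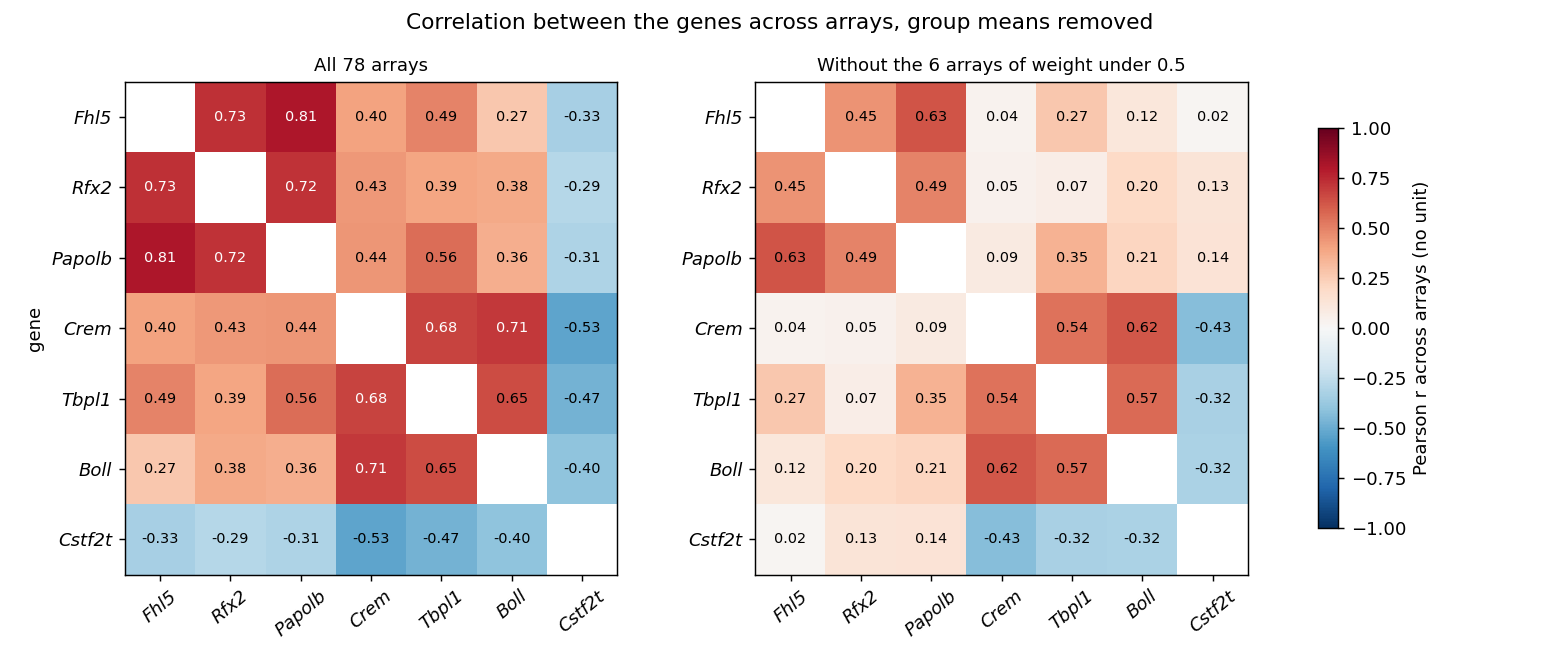
Pearson r between pairs of the 7 genes (both axes) across arrays with group means removed, for all 78 arrays (left) and without the 6 arrays of low weight (right). Fhl5, Rfx2 and Papolb form one block and Crem, Tbpl1 and Boll another, with r of 0.270 to 0.560 between the blocks on the left and 0.04 to 0.346 on the right.

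The levels of 7 marker and stage lists on each array were set against each gene, which gave 49 relations (chosen after the data were seen, group means removed, Benjamini-Hochberg adjusted over the 49). With the late spermatid level, Papolb had r = 0.828 and rho = 0.802 (permutation test, adjusted p = 4e-05 and 5e-05), and the other genes except Cstf2t had r between 0.523 and 0.714. Cstf2t had r = -0.341. For the 6 genes the range was 0.515 to 0.841 within replicate numbers 1 to 10 and 0.602 to 0.821 within 11 to 20. It was 0.466 to 0.818 without the 2 arrays farthest from the median late spermatid level. Without the arrays of low weight it was 0.280 to 0.776. The sperm marker list shares 8 of its 10 genes with the late spermatid list and gave similar values, from 0.560 to 0.778. With the leukocyte level Crem (r = 0.391, rho = 0.424), Tbpl1 (0.431 and 0.423) and Boll (0.440 and 0.486) rose, with adjusted p of 0.00154 at most (permutation test), and Cstf2t fell (-0.281 and -0.261, adjusted p = 0.0299 and 0.0467). Fhl5 (-0.141), Rfx2 (-0.00785) and Papolb (0.0133) did not pass, and the difference between the triples was not tested. Spermatocyte markers had r between 0.270 and 0.496 with the 6 genes other than Cstf2t, all of which passed (permutation test, highest adjusted p = 0.0299), though rho did not pass for Rfx2 (0.149). Without the arrays of low weight those r lay between 0.0788 and 0.424. The mean level of the spermatocyte markers lay below the median of all values (6.69). With the level of epididymal epithelium markers Cstf2t fell (r = -0.470, rho = -0.362, permutation test adjusted p = 0.000270 and 0.00282). Crem rose with it (r = 0.301, rho = 0.267, adjusted p = 0.0182 and 0.0421), and Boll passed by r (0.276, permutation test adjusted p = 0.0311) but not by rho (0.239, adjusted p = 0.0726). With the erythrocyte level 1 gene passed, Boll (r = 0.372, rho = 0.391, permutation test adjusted p = 0.00198 and 0.00147). No gene passed with the stroma level.

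**Figure D5:**
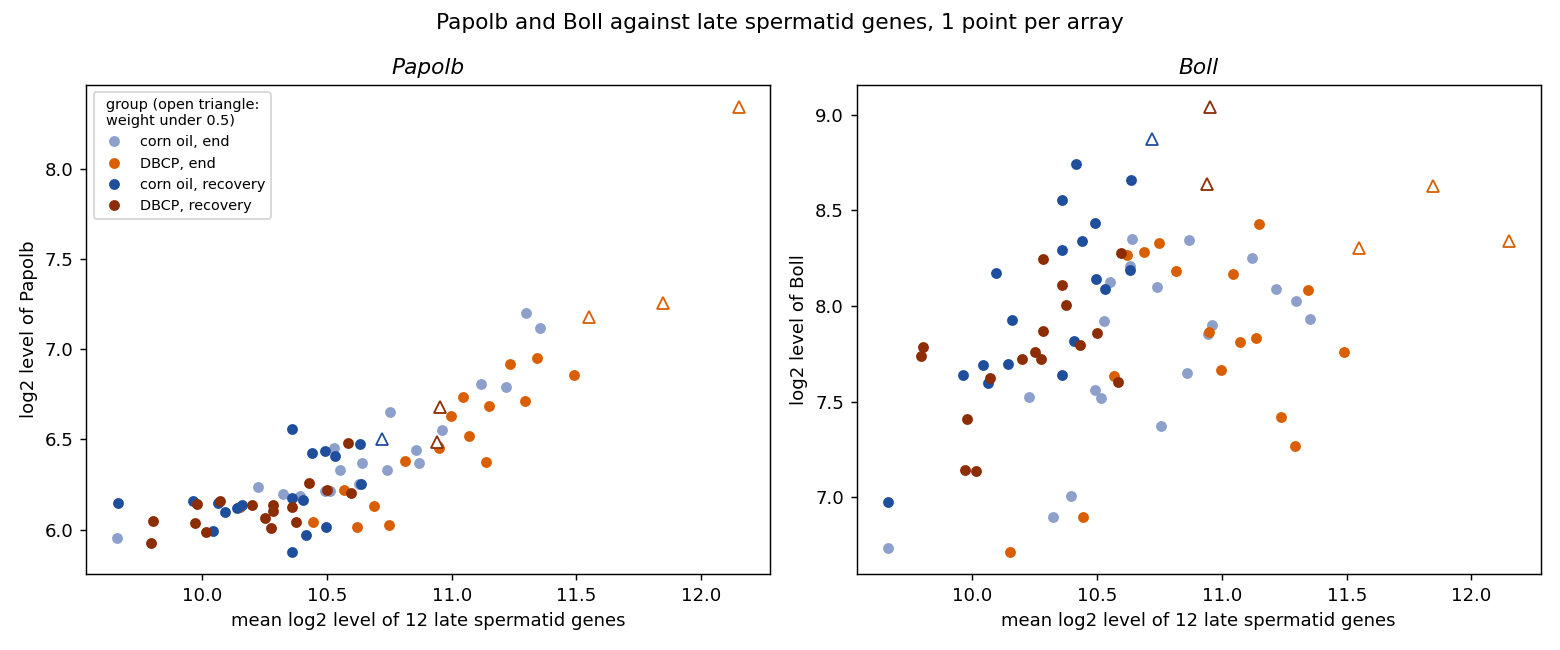
Log2 level of Papolb (left) and Boll (right) on each array (y axes) against the mean log2 level of 12 late spermatid genes (x axes), coloured by group, open triangles for weights under 0.5. Papolb follows that level closely (r = 0.828 within groups), with DBCP replicate 13 at the far end (8.34), while Boll scatters more widely (0.647). The Boll means were 7.77 (corn oil) and 7.89 (DBCP) at the end of exposure, and 8.08 and 7.87 after recovery. The late spermatid means were 10.70, 11.06, 10.31 and 10.30 in the same order.

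The genes whose residual pattern over the 78 arrays was most like each member, out of 14506, are given as a description. For Boll they were Lrrc28 (r = 0.962), Cct6b, a testis subunit of the chaperonin (0.953), and Zpbp, an acrosome protein that binds the zona pellucida (0.946). For Papolb they were Flacc1 (0.910), Galntl5, a testis glycosyltransferase relative (0.899), and Atp1a4, the sperm sodium pump (0.898). Fhl5 was most like Fam227b (0.864), Lrrcc1 (0.854) and Capza3, an actin capping subunit of spermatids (0.851). Rfx2 was most like Rnf126 (0.872), Ky (0.872) and Thop1, an oligopeptidase (0.865). The nearest genes of Tbpl1 were Commd3 (0.819), Cdc14a (0.805) and Rab3ip (0.801), and those of Crem were Sec23a (0.793), Vps13b (0.785) and Glrx3 (0.781). Cstf2t had the weakest likeness, with Pag1 (0.669), the complement receptor gene C5ar2 (0.665) and Alpl, an alkaline phosphatase (0.657). These values share their arrays, and the arrays of low weight enter all of them.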

How the data were processed

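The deposited series values, 1 log2 value per probe set and array, were used as the authors gave them. Limma is the tool that the submitters' processing notes name, and the sources used here do not state the background correction, normalization or summarisation. The values had array medians between 6.55 and 6.75, so they were taken as comparable between arrays. Symbols came from the platform annotation, and where a gene had several probe sets that of highest mean was taken. A group means model was fitted to 29214 probe sets on 78 arrays (limma 3.58.1 under R 4.3.3, functions lmFit and eBayes), with Benjamini-Hochberg adjustment over all probe sets at 0.05. The fit was also run on simulated data with independent probe sets and equal spread in all groups. Real arrays vary together and differ in spread, so that run checks the code alone. P-values measure the spread between these samples. The genes and lists were chosen with earlier results of these data known. Named were all members, up to 3 genes of smallest p of each list that passed (the 2 of highest mean where none did), the relatives Papola, Ybx1, Ybx3 and Dazl, and the 3 genes most like each member. The genes of the 3' list named in DBCP rats beyond these, and the epithelium markers, were named after their values were seen. The other settings are those of the closing section. Counts of list genes under other settings, and the relations with marker levels, were chosen after seeing the data. Same-numbered arrays did not deviate together (114 pairs, r from -0.488 to 0.568, 41 above 0.1). The number of arrays limits the precision.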

Additional observations from a re-analysis of the deposited data

How the results depend on the processing

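The 3 calls in DBCP rats over time kept direction and threshold in each other setting run except replicate numbers 11 to 20 alone, where 1 gene passed. Papolb was not tested among brighter probe sets, which leaves 2 calls there. The count in corn oil rats over time was less stable. It was 1 as deposited, 2 with quantile normalization, 2 among brighter probe sets (4 of the genes tested), 2 with the replicate block, 3 with array weights, 3 with a fit of the compared groups alone, 3 without arrays of weight under 0.5, 3 at an adjusted p of 0.10, 0 with median centring, 0 in replicate numbers 11 to 20 alone, and 0 to 2 with single arrays left out. With the replicate block Rfx2 stood at -0.19 there (limma adjusted p = 0.0427), but the numbers share no more than a label. Array weights also called Tbpl1 in DBCP rats (-0.29, adjusted p = 0.0131), as did 1 probe set per gene (adjusted p = 0.0418) and a threshold of 0.10. Over all probe sets, the count in corn oil rats over time was 7108 as deposited (47.4% higher), 63.4% of 6068 were higher with median centring, and it was 4382 with 1 probe set per gene and 385 in numbers 11 to 20 alone. In DBCP rats it was 3933, 2375 among brighter probe sets and 505 in numbers 11 to 20 alone. At the end of exposure 1 passed with 1 probe set per gene and up to 14 with 1 array left out (DBCP replicate 12), against 0. The causes were not tested.

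Values that did not pass changed sign in some settings, all near 0 as deposited except Tbpl1 in the DBCP contrast as exposure ended (0.12). In the DBCP contrast as exposure ended these were Crem -0.0063 and Cstf2t 5.5e-05 (array weights), Crem -0.050, Tbpl1 -0.014 and Cstf2t 0.024 (numbers 1 to 10 alone) and Crem -0.050 and Cstf2t 0.020 (the low weights left out). In the DBCP contrast after recovery these were Crem -0.020, Fhl5 -0.0075 and Rfx2 0.0013 (quantile normalization), Crem -0.0085, Fhl5 -0.00029 and Cstf2t -0.0020 (median centring), Crem -0.011 and Fhl5 -0.012 (array weights), Rfx2 0.0051 and Cstf2t -0.0050 (the replicate block), Crem -0.010 and Fhl5 -0.0033 (numbers 1 to 10 alone), Cstf2t -0.066 (numbers 11 to 20 alone) and Crem -0.028 and Fhl5 -0.018 (the low weights left out). In the interaction these were Crem 0.0046 (the replicate block), Crem 0.040 (numbers 1 to 10 alone) and Crem 0.022 (the low weights left out). Over time in corn oil rats these were Tbpl1 0.0096 (numbers 1 to 10 alone) and Crem -0.0080 (numbers 11 to 20 alone). Over time in DBCP rats these were Cstf2t -0.021 (array weights), Cstf2t -0.00070 (the replicate block), Boll 0.14 and Cstf2t -0.013 (numbers 1 to 10 alone), Crem -0.053 (numbers 11 to 20 alone) and Cstf2t -0.039 (the low weights left out). With single arrays left out the ranges that crossed 0 were Crem -0.019 to 0.029 (DBCP contrast as exposure ended), Crem -0.030 to 0.027 (DBCP contrast after recovery), Fhl5 -0.0085 to 0.031 (DBCP contrast after recovery), Cstf2t -0.0077 to 0.029 (DBCP contrast after recovery), Crem -0.039 to 0.024 (interaction), Crem -0.0015 to 0.061 (DBCP rats over time), Cstf2t -0.022 to 0.029 (DBCP rats over time) and Boll -0.091 to 0.014 (DBCP rats over time). The next probe set of a gene could give no value, since each has 1. Crem, Tbpl1 and Papolb had means below the median of all values (6.69), and so did Fhl5 in both recovery groups. Small changes are hard to measure on arrays at such levels.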
